A study of Mus musculus with 2 samples.

Results

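Accessible chromatin inside introns was described in mouse CFU-E cells, the erythropoietin-dependent progenitors that are committed to red cells. Regions of open chromatin were taken from the peak list of the series that had been thresholded on the irreproducible discovery rate (IDR), a measure of how well a peak repeats between peak sets. Touching or overlapping records were joined, which gave 24394 regions. A region was kept when its midpoint lay over 1 kb from every annotated transcript start, inside a gene and in no exon. This left 6458 intronic distal regions, 26.5% of all regions (95% Wilson interval 25.9 to 27.0). The replicates' own lists, which are shorter, held 4127 and 3788 such regions. The other regions comprised 12354 promoter regions, 878 exonic regions and 4704 intergenic regions.

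The assay was ATAC-seq, in which the Tn5 transposase inserts sequencing adapters into DNA that nucleosomes leave exposed. The cells were primary erythroid progenitors of C57BL/6J males, adults of 5 to 6 weeks. Each of 2 libraries was made from 50000 cells. They are labelled biological replicates 1 and 2 and have a biosample each, under 1 shared donor identifier. Both belong to 1 group, so there was no comparison between conditions and no test of one.

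An intron is transcribed and then spliced out, and its sequence is free of the constraint that coding places on exons. Many enhancers, which raise the transcription of a promoter at a distance, lie in introns of the gene they act on or of a neighbour. In red cell precursors GATA1 binds such elements, often beside TAL1 and KLF1, and the introns of Alas2 are a known example. The first intron follows the promoter directly, so elements close to a start often fall in it.

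The libraries were close to each other. In the ranked list of the series whose values matched the libraries' own lists (86.9% of records identical to replicate 1 and 84.3% to replicate 2), −log10 p at 10589 intronic records differed between the libraries by a median of 0.28 on the log2 scale after centring. In the other ranked list of the series, which matched the libraries in 6.39% and 6.61% of records, the same spread was 0.36. The libraries differed by less than the pair of sets in the second list. They were counted as 1 sample, since their independence could not be established. Intervals below cover counting error over regions only. At promoters, most erythroid markers matched the labelled cell type. All 28 erythroid transcription regulators and all 17 haem synthesis genes had a promoter region, against 45.8% of protein-coding genes. In the membrane, iron and erythropoietin signalling lists 24 of 26, 13 of 15 and 15 of 20 genes had one. In 9 lists of stem cells, other blood lineages, hepatocytes, endothelium and neurons, 0 to 3 genes of 12 to 20 had one, and in the megakaryocyte list 5 of 16. Kit, counted in the stem cell list, had neither a promoter region nor an intronic region.

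The sequences of 8 strong intronic regions are shown because they carry the motifs that the results below turn on. Each is the window of 201 bp around the summit of the strongest record, from the forward strand of mm10, with the matched motif in capitals and all other bases in lower case. The first 6, chosen among erythroid transcription, haem synthesis and membrane genes, hold a CTG and, after 7, 8 or 9 bases, a GATA site, the composite element that TAL1 and GATA1 complexes recognise. They lie in Xk (chrX:9298652-9298852), which encodes a red cell membrane protein, in Alas2 (chrX:150564727-150564927), which starts haem synthesis in red cells, and in Add1 (chr5:34582063-34582263), a protein of the membrane skeleton. The next 3 lie in E2f2 (chr4:136189913-136190113), a cell cycle regulator needed as erythroid cells mature, in Runx1 (chr16:92801622-92801822), a blood cell transcription factor, and in Cbfa2t3 (chr8:122685543-122685743), a corepressor in TAL1 complexes. The seventh lies in Pde4d (chr13:109776203-109776403), a cyclic AMP phosphodiesterase, and holds a site of the insulator protein CTCF. The last lies in Bach1 (chr16:87713101-87713301), a haem-sensing repressor, and holds a site of NFE2, a leucine zipper factor of red cells and megakaryocytes. In Alas2, E2f2, Runx1, Cbfa2t3 and Bach1 the motif is on the reverse strand, so the capitals show its complement read backwards.
Xk: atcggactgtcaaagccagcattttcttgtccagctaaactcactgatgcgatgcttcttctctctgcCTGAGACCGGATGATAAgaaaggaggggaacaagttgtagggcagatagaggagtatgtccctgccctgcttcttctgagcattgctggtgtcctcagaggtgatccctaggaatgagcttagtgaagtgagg
Alas2: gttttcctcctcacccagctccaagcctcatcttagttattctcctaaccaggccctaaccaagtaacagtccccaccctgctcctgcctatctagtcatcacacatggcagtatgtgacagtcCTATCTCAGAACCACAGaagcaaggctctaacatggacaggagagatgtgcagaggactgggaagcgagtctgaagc
Add1: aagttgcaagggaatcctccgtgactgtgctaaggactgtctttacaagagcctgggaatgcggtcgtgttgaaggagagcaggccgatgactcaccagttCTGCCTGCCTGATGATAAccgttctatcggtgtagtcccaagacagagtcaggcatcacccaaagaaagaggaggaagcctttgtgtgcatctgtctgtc
E2f2: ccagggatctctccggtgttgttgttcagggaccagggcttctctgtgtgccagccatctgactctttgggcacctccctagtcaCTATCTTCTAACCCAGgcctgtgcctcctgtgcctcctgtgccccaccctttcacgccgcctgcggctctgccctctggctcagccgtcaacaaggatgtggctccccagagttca
Runx1: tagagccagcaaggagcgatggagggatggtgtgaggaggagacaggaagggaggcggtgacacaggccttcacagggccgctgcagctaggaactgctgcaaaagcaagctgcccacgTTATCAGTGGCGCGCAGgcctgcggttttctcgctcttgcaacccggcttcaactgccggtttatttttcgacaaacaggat
Cbfa2t3: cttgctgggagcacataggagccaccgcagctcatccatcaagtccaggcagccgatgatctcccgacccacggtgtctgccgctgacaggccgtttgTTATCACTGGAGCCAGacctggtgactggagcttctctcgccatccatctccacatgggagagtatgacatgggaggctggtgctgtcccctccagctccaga
Pde4d: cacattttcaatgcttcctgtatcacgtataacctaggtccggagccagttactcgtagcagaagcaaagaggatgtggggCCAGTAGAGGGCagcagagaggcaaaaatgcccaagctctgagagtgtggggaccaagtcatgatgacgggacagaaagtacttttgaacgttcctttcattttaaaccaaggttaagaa
Bach1: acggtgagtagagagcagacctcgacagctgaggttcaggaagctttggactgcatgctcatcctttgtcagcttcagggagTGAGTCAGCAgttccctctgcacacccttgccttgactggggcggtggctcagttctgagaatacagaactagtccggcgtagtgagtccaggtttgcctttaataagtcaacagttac

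Of the shown regions, the one in Xk was the strongest, with a fold of 15.5 over both libraries and of 14.4 and 14.1 in replicates 1 and 2. Fold is the authors' enrichment of a peak over its local background, taken from the strongest record of a region. The Alas2 region, in intron 8 and 1.49 kb from the nearest start, had a fold of 14.5 (13.2 and 13.6 in the replicates). In Add1 it was 13.8 (12.4 and 13.4), in E2f2 11.7 (10.9 and 12.2), in Runx1 11.2 (10.9 and 10.5) and in Cbfa2t3 10.9 (10.7 and 10.4). The CTCF region of Pde4d had a fold of 14.3 (13.4 and 12.1). It lay 1122 kb from the start of the gene's reference transcript. The NFE2 region of Bach1 had a fold of 13.7 (13.8 and 12.05). All 8 were thus present in both libraries' own lists, and the folds of a region in the libraries were within 1.5 times of each other.

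Introns held accessible regions at a higher density than intergenic sequence. Over 1017 Mb in which a midpoint could be classed as intronic, there were 6.35 regions per Mb. There were 3.21 per Mb over 1464 Mb of intergenic sequence, 10.4 per Mb in exonic sequence and 77.1 per Mb within 1 kb of starts. Unsequenced bases of the reference were not left out of these lengths or of those by distance below, and their part in the difference was not tested. The median intronic region lay 6.37 kb from the nearest start of any gene, and the farthest 435.5 kb. At the limit of 1 kb itself, the 667 promoter regions in the last 250 bp inside it had a median fold of 5.32 and the 301 intronic regions in the first 250 bp outside it one of 5.73.

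First introns were denser in regions than later introns. On 1 reference transcript per gene, 2008 regions lay in a first intron and 3758 in a later one. Another 156 lay in the first intron of one gene and a later intron of another, and 536 in introns of other transcripts only. First introns thus held 34.8% of the regions that could be assigned (33.6 to 36.1) in 27.6% of the sequence. Their density was 8.04 per Mb against 5.73 per Mb in later introns, a ratio of 1.40 (1.33 to 1.48). The ratio was 1.48 in replicate 1's own list and 1.54 in replicate 2's. By intron number, the density was 7.98 per Mb in intron 1 (7.63 to 8.34), 6.13 in intron 2, 5.97 in intron 3 and 5.21 in intron 4, and between 5.15 and 6.67 in those beyond. The interval of intron 1 overlapped that of intron 10 (5.54 to 7.96) and no other.

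Much of that difference lay close to the start. At 1 to 2 kb from the nearest start, first introns held 18.03 regions per Mb and later introns 10.9, a ratio of 1.65 (1.44 to 1.89). The ratio was 1.09 at 2 to 5 kb (0.983 to 1.21), 1.13 at 5 to 10 kb (1.004 to 1.26), 1.19 at 10 to 20 kb (1.05 to 1.34) and 1.00 at 20 to 50 kb (0.845 to 1.19). When later introns were weighted to the distances that first introns have, their density was 6.72 per Mb and the ratio was 1.20. Both kinds of intron exceeded intergenic sequence at the same distance, which held 9.37 regions per Mb at 1 to 2 kb, 4.52 at 10 to 20 kb and 2.07 at 20 to 50 kb. Later introns held 6.19 and 3.59 per Mb in the last pair of ranges. At 1 to 2 kb the intervals of later introns (9.91 to 12.02) and intergenic sequence (8.49 to 10.3) overlapped. Starts are the annotated ones of all genes, active or not.

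**Figure D1:**
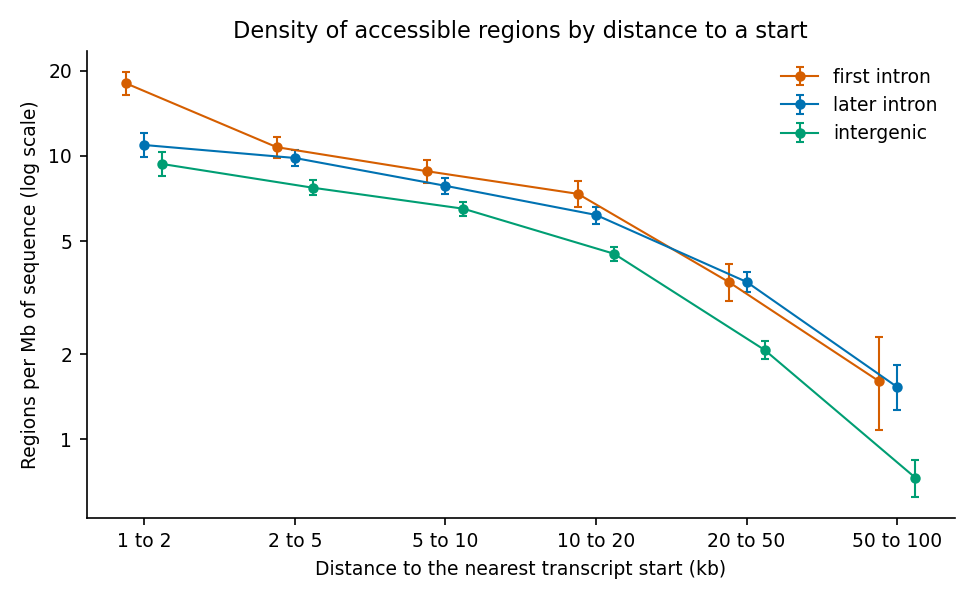
Accessible regions per Mb of sequence (vertical axis, log scale) by distance to the nearest annotated transcript start in kb (horizontal axis), for first introns, later introns and intergenic sequence. Points are densities in the series list and bars are exact 95% counting intervals. First introns stood apart at 1 to 2 kb (18.03 against 10.9 per Mb in later introns), and the intron kinds met at 20 to 50 kb (3.595 and 3.594 per Mb).

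Position within an intron showed a rise at the 5′ end of first introns, and an excess along their whole length. In first introns of 10 kb or longer, divided into 10 equal segments from the 5′ end, the leading segment held 11.3 regions per Mb and the next 8.13, and the others held 6.14 to 7.47. In later introns of that length the 10 segments ranged from 3.76 to 5.00 per Mb, and the highest was the ninth. Every segment of first introns was thus denser than every segment of later introns. These segments were not matched for distance to a start.

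Intronic regions were weaker and narrower than promoter regions. Their median fold was 6.37 (order-statistic 95% interval 6.31 to 6.44), with quartiles of 4.99 and 8.43 and a highest value of 27.6. Promoter regions had a median fold of 9.23 and intergenic regions 6.77. A fold of 10 or more was reached by 870 intronic regions, or 13.5%, against 43.7% of promoter and 17.3% of intergenic regions. Median width was 439 bp (433 to 446) in introns, 797 bp at promoters and 446 bp in intergenic sequence, and more than 1 summit was called in 43.3%, 70.8% and 46.3%. The intronic regions covered 3.30 Mb, and 4 of them were 2 kb or wider. The widest, of 2768 bp, lay in an intron shared by Sla, an adaptor protein of blood cells, and Tg (chr15:66825157-66827924, fold 5.90). Tmod1, which caps actin in the red cell skeleton, had one of 1905 bp (chr4:46039749-46041653, fold 8.06).

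The order of first and later introns depended on the measure. First introns had a lower median fold, 5.94 (5.77 to 6.13) against 6.57 (6.44 to 6.66), and a higher median −log10 p, 37.8 (35.9 to 39.6) against 34.5 (33.4 to 35.5). Their median widths were 427 and 443 bp. The gap in fold was found near starts: at 1 to 2 kb the median was 5.01 in first and 6.15 in later introns, at 2 to 5 kb 5.51 and 6.31, and at 5 to 10 kb 6.62 and 6.65. From 5 kb on the intervals overlapped in each range.

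**Figure D2:**
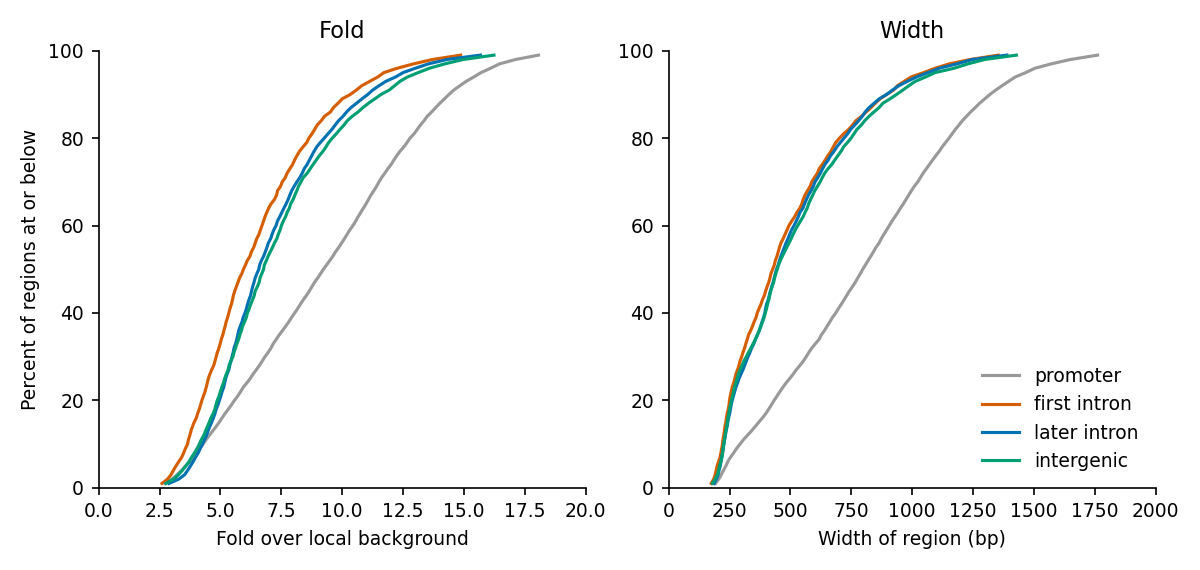
Percent of regions at or below a given fold over local background (left) and a given width in bp (right), from percentiles 1 to 99 of the series list, for promoter regions, first introns, later introns and intergenic sequence. Promoter regions lay to the right in both (medians 9.23 and 797 bp), and first introns lay leftmost in fold (median 5.94).

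Fewer intronic regions than promoter regions were found in both libraries. A region overlapped both replicates' own thresholded lists in 49.7% of intronic cases (3210 of 6458, 48.5 to 50.9), against 65.3% of all regions, 79.4% of promoter regions and 51.6% of intergenic regions. It was found in replicate 1's list alone in 12.98%, in replicate 2's alone in 7.60% and in neither in 29.7%. First introns were shared in 53.3% (51.2 to 55.5) and later introns in 47.7% (46.1 to 49.3). Most of the unshared regions were still present below the threshold: of the 1919 found in neither list, 80.6% overlapped a record of replicate 1's unthresholded ranked list and 74.4% one of replicate 2's. Their median fold was 4.90 and width 296 bp, against 8.20 and 591 bp in the shared regions.

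Sharing was more frequent in stronger regions. When all regions of the series were put in 5 equal groups by −log10 p, intronic regions were shared in 0.567% of the lowest group, 32.9% of the next, 89.4% of the middle group and 100% of the upper groups (915 and 429 regions). Promoter regions were shared in 37.6% and intergenic regions in 35.8% of the second group, and in 92.1% and 90.3% of the middle one. Of the intronic regions, 30.02% were in the lowest group and 6.64% in the highest, against 11.2% and 33.1% of promoter regions. Grouped by fold in place of −log10 p, the kinds of region lay further apart. In the second of 5 equal groups by fold 58.8% of promoter, 45.7% of first intron (41.4 to 50.02), 25.1% of later intron (22.6 to 27.7) and 30.5% of intergenic regions were shared, and in the middle group 82.2%, 74.5%, 59.6% and 55.5%. The series list comes from the same libraries, so strength and sharing are not independent measures.

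**Figure D3:**
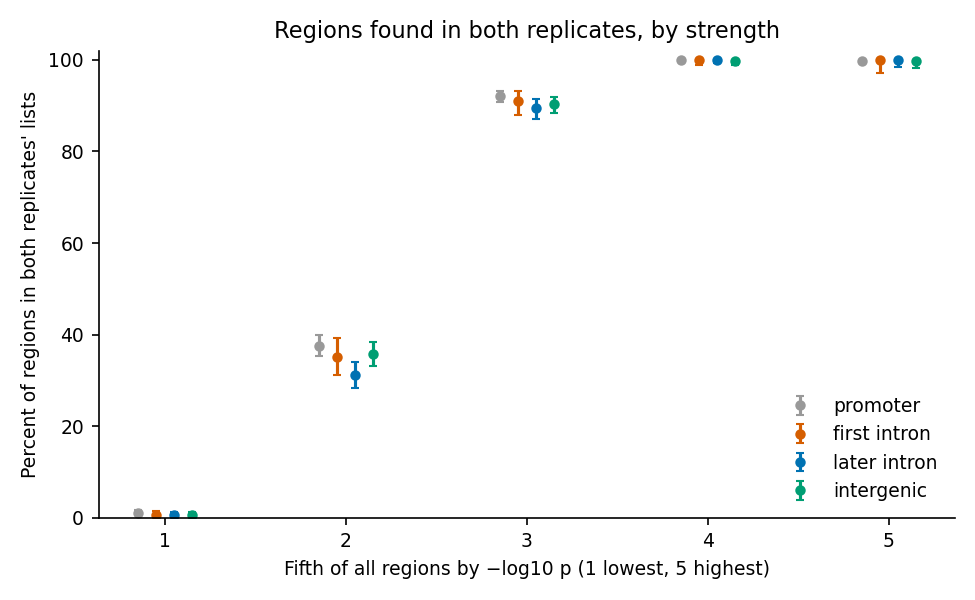
Percent of regions found in both replicates' own thresholded lists (vertical axis) in 5 equal groups of all regions by −log10 p (horizontal axis), for promoter regions, first introns, later introns and intergenic sequence, with Wilson 95% intervals. Within a group by −log10 p the kinds of region lay nearer each other than within groups by fold, from 0.539% to 1.09% in the lowest to 99.7% or more in the upper groups.

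Where a region was in both own lists, its fold was similar in the libraries. Over 3210 regions the median was 7.73 in replicate 1 and 7.53 in replicate 2, Pearson's r of the log2 folds was 0.938 and Spearman's rho 0.927. These are correlations across regions of the same libraries, whose independence could not be established. The folds were within 1.5 times of each other in 99.7%.

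Intronic regions were spread over many genes. At least 1 was hosted by 3672 genes of any type, of which 3187 were protein-coding, 16.6% of the 19252 protein-coding genes with intronic sequence that could be classed. In the replicates' own lists the shares were 11.7% and 10.8%. A single region was found in 1936 of these hosts, 2 in 621, 3 or 4 in 399, 5 or more in 231 and 10 or more in 21. The 100 protein-coding genes with the most held 14.2% of all intronic regions in 2.38% of the sequence. They were ranked by that same count, so a share of regions above that of sequence follows in part from the choice. Among them is Gm20388, with 107 regions in a gene model that spans other genes. Neighbouring regions in a host were separated by a median of 7.76 kb, and 38.01% of 2978 such gaps were under 5 kb. Genes overlap, and a region in several genes was counted for each (7.05% of regions).

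Hosts had an accessible promoter more often than other genes. A promoter region was present at 76.6% of protein-coding hosts (75.1 to 78.1) and at 42.8% of 16065 non-hosts (42.0 to 43.5). It was present at 72.8% of hosts of 1 region, 81.6% of hosts of 2 to 4 and 87.01% of hosts of 5 or more. Hosts also had more intronic sequence, with a median of 38.5 kb against 11.1 kb, so the density was compared within 5 equal groups of genes by that length. In the shortest group, genes with a promoter region held 2.85 intronic regions per 100 kb and genes without one 0.532. In the middle group these were 2.07 and 0.619, and in the longest 1.10 and 0.160. The shortest genes hosted rarely: 54 of 1478 with a promoter region did, or 3.65%, against 934 of 1767 in the longest group, or 52.9%.

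Some hosts with many regions are gene models that span other genes. Gm20388, which had the largest count and whose annotated body of 4.435 Mb encloses 71 whole protein-coding genes, hosted 107 regions. Fgfr2, a receptor of fibroblast growth factors, has an annotated body of 2.96 Mb that encloses 29 such genes. Its 19 regions were all outside the introns of its reference transcript. The long noncoding genes Gm26561 (16 regions) and Gm26745 (12) enclose 6 and 4 protein-coding genes. In all, 93 genes enclose 3 or more protein-coding genes, and 74 intronic regions (1.15%) had no other host. Without these genes the ratio of first to later introns was 1.37 and the share of intronic regions 26.2%.

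Among hosts whose body encloses no other whole protein-coding gene, Gse1, a coiled-coil protein of corepressor complexes, came first. It had 30 regions over 329 kb (19 in each replicate's own list). Of these, 5 were in the first intron of its reference transcript and 25 in introns of other transcripts. Pde4d had 16 over 1460 kb, all in later introns (8 and 9 in the replicates), and Itpr2, a calcium release channel, had 14 (11 and 7). Elmsan1, a scaffold of a mitotic deacetylase complex, had 13 in 47.25 kb of intronic sequence, a density of 27.5 per 100 kb against 0.635 over all introns. Other hosts of 13 were Mboat2, a phospholipid acyltransferase, Lipc, which encodes hepatic lipase, and Pitpnc1, a phosphatidylinositol transfer protein. Lipc had no promoter region, and 10 of its 13 regions held a GATA match. All 13 regions of Lipc and of Pitpnc1 were in the first intron of their reference transcripts.

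Sox6, a repressor of embryonic globin genes in maturing red cells, stood out by strength. Its 12 regions had folds of 13.7, 12.2, 12.05, 11.7, 10.8, 10.5, 10.4, 10.2, 8.04, 5.16, 4.73 and 3.75. The median of 10.45 was above that of any other of the 20 hosts with the most regions, and all 12 summits had a GATA match. The strongest was in intron 2 (chr7:115941724-115942339), with 12.4 in replicate 1 and 13.2 in replicate 2. The 3 weakest were absent from at least one library's own list, and all 9 others were in both lists.

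Hosts of 10 to 12 regions included Fig4, a phosphoinositide phosphatase, whose strongest region had a fold of 18.9 (chr10:41189129-41190075, 17.9 and 17.3 in the replicates). Dpf3, a chromatin remodelling subunit, had 12, and Usp7, a deubiquitinase, and Tbxas1, the thromboxane synthase of platelets, had 11 each, as had Atxn7l1 and the noncoding gene F930017D23Rik. Tbc1d2b, a Rab regulator, and Jade2, a subunit of a histone acetyltransferase complex, had 10 each. Jade2 reached 30.9 regions per 100 kb, all in later introns, and was among the densest hosts of 4 or more. Denser still were the antisense gene Map2k3os (4 regions, 44.6 per 100 kb), D030028A08Rik (8 regions, 35.7) and the septin gene Sept1 (4 regions, 32.9). The phospholipid flippase gene Atp8b3 had 28.8, AC163629.2 25.6, A930015D03Rik 23.8 and E2f2 23.6 per 100 kb. Antisense and overlapping genes share these regions with their partners, and ATAC-seq reads carry no strand.

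**Figure D4:**
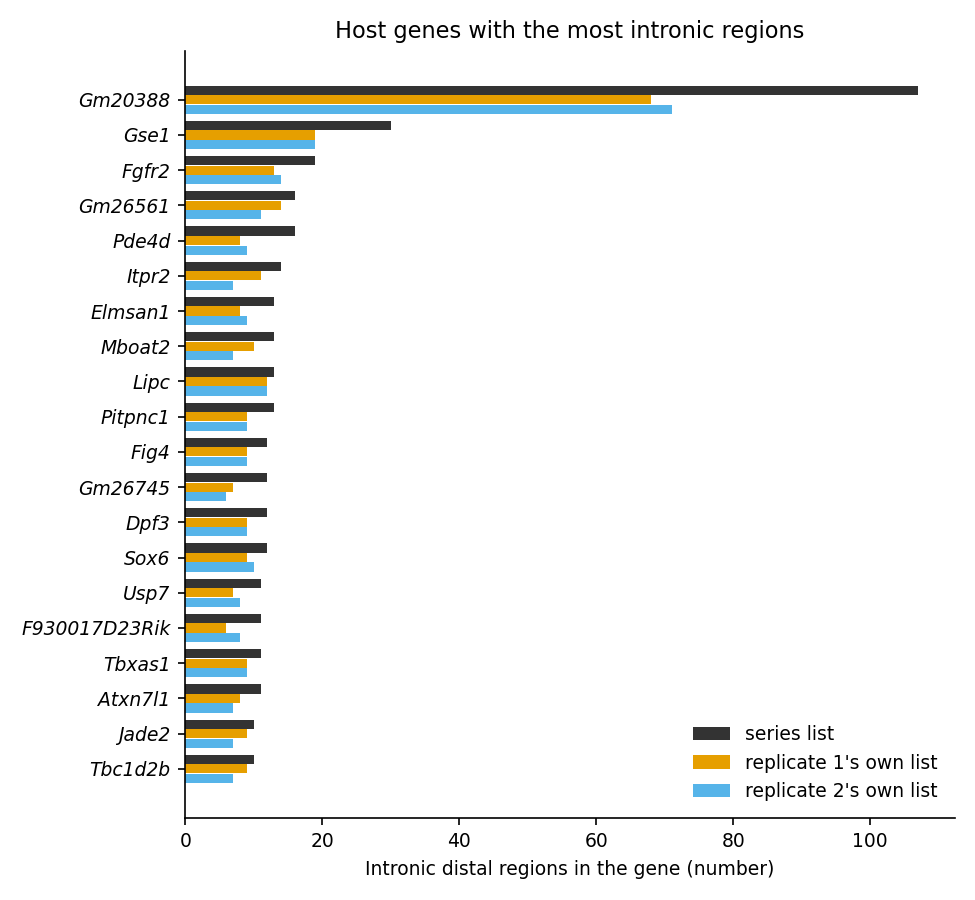
Number of intronic distal regions (horizontal axis) in the 20 genes that hosted the most in the series list, with the number in each replicate's own list beside it. Gm20388 had the most (107), then Gse1 (30) and Fgfr2 (19), and Gm20388 and Fgfr2 are gene models that enclose many other genes.

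Erythroid transcription, membrane and haem synthesis genes hosted intronic regions more often than the 16.6% of all protein-coding genes. The exact intervals of these 3 lists lay above that share, which is not matched for promoters or length. A promoter region was present at 28 of 28, 24 of 26 and 17 of 17 members, against 45.8% of all protein-coding genes. Mean intronic sequence was 68.2, 43.3 and 25.3 kb per gene, against 46.4 kb. Genes with a promoter region were hosts in 3.65% of the shortest to 52.9% of the longest of 5 equal groups by that length. The lists were chosen with earlier results of these data known. Of 28 erythroid transcription regulators, 21 were hosts (75%, exact interval 55.1 to 89.3), with a median of 1 region per gene, where the median over all genes was 0. The counts were 19 and 16 in the replicates' own lists. Sox6 had 12 and 3 genes had 9 each. Among these, Zfpm1, the cofactor of GATA1 known as FOG1, had its strongest at chr8:122294014-122294667 (fold 7.26, 6.85 and 7.24 in the replicates), and Nfia, a regulator of erythroid fate, one of fold 11.6. Cbfa2t3 had 6, of which 5 were in both libraries' lists, and Runx1 had 5, of which 4 were. Gata1, the master regulator of the lineage, had 1 of fold 9.83 (9.93 and 9.30), in an intron that its reference transcript lacks. This region lay outside that transcript, 3.52 kb from its start. Those of Lmo2 (2, fold up to 3.30) and Rcor1 (1, fold 4.89) were in neither replicate's list.

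Red cell membrane and surface genes were hosts in 19 of 25 cases (76.0%, 54.9 to 90.6), 18 in each replicate's list, with a median of 2. Cd47, the signal against phagocytosis, had 7 (strongest fold 10.6), of which 3 were in both libraries' lists, and Epb41, protein 4.1 of the skeleton, had 6 (fold 11.6). Ank1 (ankyrin, fold 8.87), Sptb (beta-spectrin, 6.45), Gypc (glycophorin C, 8.56) and Cd36 (a fatty acid receptor, 8.83) had 5 each. Several regions of Cd47 and Ank1 lay outside the introns of their reference transcripts, on the upstream side. Among them were the strongest of each, 15.65 and 4.29 kb from the reference start. Cd36 lacked a promoter region. The folds in the libraries lay near each other at these genes, for example 9.55 and 10.6 at Cd47 and 11.6 and 10.8 at Epb41.

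Haem synthesis genes were hosts in 8 of 15 cases (53.3%, 26.6 to 78.7), all 8 in each replicate's list. Alad, the second enzyme of the pathway, and Abcg2, a porphyrin exporter, had 3 each. Alas2 had 2, in intron 8 as shown above and in intron 1 (chrX:150549439-150550078, fold 11.3, 9.75 and 11.8 in the replicates). The mitochondrial carriers Slc25a37 and Slc25a38 and Tmem14c also had 2 each. Both summit windows of Alas2 held 2 GATA matches, 1 GATA pair and 1 KLF match.

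Iron genes were hosts in 5 of 12 cases (41.7%, 15.2 to 72.3). Slc11a2, an iron transporter, and Steap3, which reduces endosomal iron, had 3 each, of fold up to 12.7 and 9.03. Tfrc, the transferrin receptor gene, had 2 in intron 1, of fold 5.36 and 4.12, and Trf (transferrin) and Ncoa4, the ferritin receptor of autophagy, had 1 each. Erythropoietin signalling genes were hosts in 6 of 19 cases (31.6%, 12.6 to 56.6), led by the survival gene Bcl2l1 with 6 (fold 9.69), then Stat5b and Gab1 with 2 each and Jak2 with 1. In replicate 2's own list the count was 4. Organelle clearance genes were hosts in 5 of 14 (35.7%, 12.8 to 64.9), led by Optn, an autophagy receptor, with 5, and Ube2o, which clears ribosomal proteins, with 3. Exact intervals of the iron, signalling and clearance lists reached down to 15.2%, 12.6% and 12.8%, below the share of all genes.

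Cell cycle genes were hosts in 8 of 24 cases (33.3%, 15.6 to 55.3). This interval, too, reached below the 16.6% of all protein-coding genes. Among the hosts were Ccnd3, the cyclin that sets the number of erythroid divisions, with 8 regions, all in both libraries, and Cdk6 with 6. The 9 ribosomal protein genes with intronic sequence to class hosted none, which is compatible with a share of up to 33.6%. Their introns are short, as 11 of 20 had no position over 1 kb from a start.

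Genes of other lineages hosted intronic regions at shares whose exact intervals all included the 16.6% of all genes. The numbers of hosts were 0 of 14 mast cell genes, 0 of 13 endothelial genes, 1 of 18 hepatocyte genes (Hnf4a, 2 regions, in neither replicate's list), 1 of 17 granulocyte and monocyte genes and 1 of 14 B cell genes. The upper limits of the empty lists were 23.2% and 24.7%, so a deficit in the share of hosts was not detectable at these list sizes. Per 100 kb of intronic sequence, neuronal genes (mean 456.6 kb) held 0.0584 regions, macrophage genes 0.266, B cell genes 0.278 and stem and early progenitor genes 0.308. All protein-coding genes (mean 46.4 kb) held 0.691. T and NK cell, granulocyte and hepatocyte genes held 0.58, 0.64 and 0.67, and megakaryocyte genes 2.40. These densities carry no interval. Spi1, which drives myeloid fates, had 1 region of fold 6.80, absent from replicate 2's list, and Blnk, a B cell adaptor, had 2. The macrophage gene Cd163 had 1, of fold 11.04. Of 20 T and NK cell genes 4 were hosts, among them Lck (fold 6.24), Tcf7 (6.13) and Runx3 (4.50), with 1 region each. In the replicates' own lists 1 and 2 of the 20 genes were hosts. Of 15 neuronal genes 4 were hosts (Rbfox3, Syt1, Grin1 and Cntnap2), and in each replicate's list 1, Syt1 (fold 12.3). Stem and early progenitor genes were hosts in 3 of 19, among them Angpt1 (2 regions, fold 12.05) and Prdm16 (1, fold 9.30), and megakaryocyte genes in 4 of 11. These were the clotting factor gene Vwf (6 regions), Rab27b (3), Selp (1) and Tubb1 (1, fold 12.9).

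GATA sites were frequent at intronic summits. The sites searched were AGATAA or AGATAG and also TGATAA or TGATAG on either strand within 100 bp of the strongest summit. A match was present at 54.5% of intronic summits (53.3 to 55.7) and in 29.3% of 11975 windows of the same width that lay 1 kb outside the regions and overlapped none. Over all regions of the series the share was 33.0%, at promoters 16.7% and in intergenic regions 45.0% (43.6 to 46.4). First introns had 56.8% (54.7 to 59.0) and later introns 53.9% (52.3 to 55.5), whose intervals overlapped. The GATA pair was present at 17.9% of intronic summits against 2.08% of flanking windows, 13.2% of intergenic and 9.44% of all regions. A match is a sequence description and no measure of binding, and every pair is also counted as a GATA match.

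GATA matches were more frequent in introns farther from starts. It was 47.2% at 1 to 2 kb, 51.8% at 2 to 5 kb, 53.5% at 5 to 10 kb, 58.6% at 10 to 20 kb and 62.1% at 20 to 50 kb. In intergenic regions it was 37.8% at 1 to 2 kb, 43.4% at 10 to 20 kb and 47.6% at 20 to 50 kb. At 50 to 100 kb introns and intergenic regions had 65.4% and 65.3%. First introns at 10 to 20 kb had 67.3% (62.4 to 71.9) and later introns 55.02% (51.6 to 58.4). Just outside the limit of 1 kb 45.2% of intronic regions had a match, and just inside it 38.1% of promoter regions.

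Regions with GATA were also stronger and more often shared. In the 481 intronic regions that were in the top of 5 equal groups of all regions by fold, 70.5% had a match (66.3 to 74.4), against 49.8% of the 1651 in the lowest group. The share was 63.7% of regions in both libraries' lists and 42.8% of those in neither. Regions with the pair had a median fold of 7.62 and width of 616 bp and were shared in 71.0%, against 6.18, 416 bp and 45.1% without it. In hosts of 5 or more regions 61.8% had a GATA match, and in hosts of 1 region 46.6%.

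CTCF sites divided the intronic regions in another way. The CTCF core was matched at 9.85% of intronic summits (9.15 to 10.6) and 0.100% of flanking windows, and at 6.96% of all regions. First introns had 5.68% (4.75 to 6.78), later introns 11.9% (10.9 to 13) and intergenic regions 13.7% (12.7 to 14.7). The share was lower in first introns in each range of distance up to 50 kb, with 5.63% and 11.7% at 1 to 2 kb and 3.63% and 13.7% at 5 to 10 kb. At 20 to 50 kb it was 4.52% and 10.1%, with overlapping intervals. At 50 to 100 kb the order was the other way, at 16.7% of 30 and 8.55% of 117, with overlapping intervals (7.34 to 33.6 and 4.71 to 15.02). CTCF regions were narrower (median 380.5 against 450 bp) and were shared by the libraries in 30.03% (26.6 to 33.7) against 51.9% of intronic regions without a match. Of CTCF regions, 21.2% had a GATA match and 1.73% the pair. Over all intronic summits these shares were 54.5% and 17.9%, and in flanking windows of intronic regions 29.3% and 2.08%.

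KLF sites (CCACACCC, CCACGCCC, CCCCACCC and CCCCGCCC), which KLF1 and related factors bind, were matched at 19.5% of intronic summits against 6.53% of flanking windows and 29.4% of all regions. First introns had 22.5% (20.7 to 24.4) and later introns 17.9% (16.7 to 19.2), and promoters 39.6%. Where a window had KLF matches on 1 strand only, that strand was the coding strand of the host in 43.9% of 1072 cases (41.0 to 46.9), with 43.6% in first and 44.3% in later introns. In flanking windows of the same regions it was 48.4% (44.7 to 52.1), and for GATA 49.5% at summits (47.5 to 51.4). NFE2 sites (TGCTGACTCA and TGCTGAGTCA) were matched at 2.73% against 0.226% of flanking windows and 1.54% of all regions. AP1 sites (TGACTCA and TGAGTCA), which every NFE2 match contains, had 7.68% against 3.53% of flanking windows and 5.08% of all regions. RUNX sites (TGCGGTC or TGCGGTT and also TGTGGTC or TGTGGTT) had 10.8% against 9.28% and 9.54%. ETS sites (ACCGGAAGT) were matched at 0.0774% against 0.0334% and 1.03%, which is 5 intronic regions. None of the 8 motifs was matched at 23.03% of intronic summits.

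**Figure D5:**
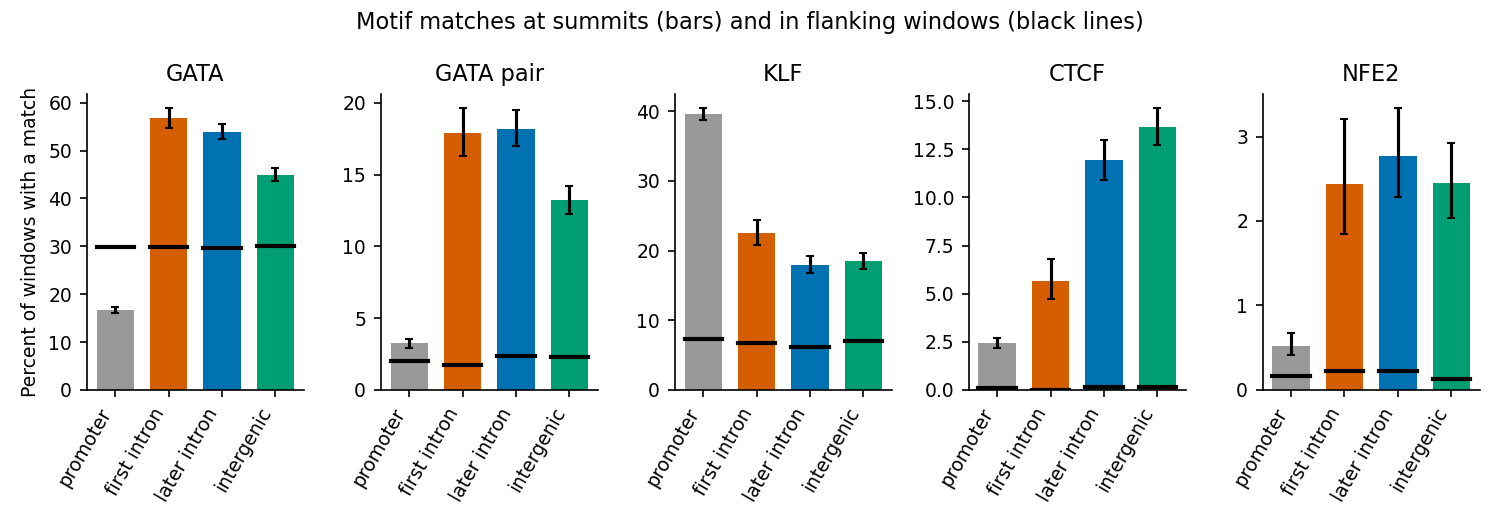
Percent of windows of 201 bp with a motif match (vertical axes, each with its own scale) at summits of promoter regions, first introns, later introns and intergenic regions (bars, with Wilson 95% intervals) and in flanking windows (black lines). GATA was matched at 56.8% of first intron and 53.9% of later intron summits and at 16.7% of promoter summits, and CTCF at 5.68%, 11.9% and 2.43%.

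The GC content of first and later introns was alike. Median GC content at summits was 50.75% in both, against 45.8% in their flanks and 63.7% at promoters. Annotated repeats, shown as soft-masked bases in the reference, made up 12.8% of bases at intronic summits and 25.9% in the flanks. They made up 15.4% of bases in regions found in neither replicate's list and 11.1% in those found in both.

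The very strongest intronic regions held GATA sites less often than those next in rank. These sets were ranked by fold, and the shares are given as a description. Among the 50 with the highest fold, 50% had a GATA match and 28% had none of the 8 motifs, against 72.9% and 13.3% of the next 450. The leading region, in AC115970.1, a pseudogene (chr10:96077465-96077947), had a fold of 27.6 and −log10 p of 347.9, 24.8 and 26.3 in the replicates' lists, and none of the motifs. Of its 31-mers, 32.9% also occur in the mitochondrial genome, the highest share among the 4 intronic regions with any such 31-mer. The part of mitochondrial reads in its fold was not tested. Others among the 12 strongest were in Cldn34d (fold 25.8), a claudin-like gene, Gnb1l (25.8), Vegfd (20.5), Apool (20.3), Mnd1 (19.99), Bmx (19.8), Gm16675 (19.3), Ssh2 (19.2), Fig4 (18.9) and Ckap5 (18.9). Only Bmx, Ssh2 and Fig4 of these 12 had a GATA match at the summit, and all 12 were in both replicates' lists.

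Chromosomes differed in density. Chromosome 11 held 11.2 intronic regions per Mb (10.3 to 12.2), the other autosomes 4.52 to 8.59, and the X chromosome 2.34 (1.91 to 2.83), against 6.57 over all autosomes. The 105 regions of the X chromosome were stronger, with a median fold of 8.19 against 6.36 on autosomes, and 10 of the 50 regions of highest fold were there, among them those of Cldn34d, Vegfd, Apool and Bmx.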

How the data were processed

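ATAC-seq was measured in 1 group of 2 libraries. The authors deposited peak lists on mm10, per the labels and the deposited file listing, and the software for alignment and peak calling and any shift for Tn5 were not given in the sources used here. Each peak's fold is a ratio over local background computed by the authors. The authors gave p as −log10 p in the deposited lists. The IDR score deposited by the authors was 540 or more in the thresholded lists. Read depth is unknown from peak lists, so no interval here includes it.

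Records were merged in Python 3.11.15 with NumPy 2.4.6 and SciPy 1.17.1, and regions were placed on GENCODE M21. Intron numbers came from 1 reference transcript per gene (APPRIS principal, then longest). Motifs were searched within 100 bp of the summit of highest fold, and flanking windows lay 1 kb outside the region. The steps were tested on simulated positions. Shares carry Wilson intervals, gene lists and densities exact ones, and medians order-statistic ones, at 95%.

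The 18 gene lists held 328 entries for 327 different genes, all found in the annotation. The members and lists were chosen with earlier results of these data known. Genes were named by rule: the 20 hosts with the most regions, the 10 densest hosts of 4 or more, the 12 regions of highest fold, up to 5 members of each list with the most regions, and 8 sequences. Of these, 6 are the strongest intronic regions of hosts in the erythroid transcription, haem synthesis and membrane lists, those of highest fold with a GATA pair at the summit, and the other two are the strongest regions in protein-coding hosts with a CTCF and an NFE2 match. Chromosome 18 was left out of this choice. Gata1, Lmo2, Rcor1, Jak2, Tmod1 and Sla were chosen after their values were seen. Some items are not reported here. Signal tracks were not used here.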

Additional observations from a re-analysis of the deposited data

How the results depend on the processing

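Regions are counted in 1 sample of 2 similar libraries, so no value has an error over animals, and peak lists hold no depth with which to judge regions near the threshold. On the own list of 1 replicate alone, the intronic share of regions was 21.2% to 22.1%, the first intron share 36.0% to 36.9%, the density ratio 1.48 to 1.54, the median fold 7.19 in both (7.191 and 7.193), the median width 443 to 462 bp, the share also in the lists of both 78.5% to 86.0%, the number of host genes 2383 to 2571, the GATA share 60.7% to 61.1% and the share with the pair 22.5% to 22.9%. Of the erythroid lists, 56 to 61 members were hosts in place of 64 of 113.

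The less strict overlap list moved most values. There, in the same order, they were 32.9%, 31.8%, 1.23, 4.28, 321 bp, 23.1%, 6478 genes, 45.8% (45.75) and 12.3%. With the upper 50% of regions by fold they were 17.9%, 30.4%, 1.15, 9.46, 640 bp, 87.4%, 1756 genes, 63.2% and 26.6%. At 2 kb from every start the intronic share was 22.4%, the first intron share 31.9%, the ratio 1.29, the fold 6.53, the width 448 bp and the GATA share 55.8%. With protein-coding genes only, the intronic share was 25.3%, the first intron share 33.3% and the ratio 1.51. With first introns of any transcript the first intron share was 51.2%, and with those first in every transcript it was 29.8% and the ratio 1.31. An overlap of 50% gave 46.6% shared, and windows of 50 bp gave 43.5% for GATA (43.45) and 13.6% for the pair. The ratio of first to later introns stayed above 1 in each of these settings. The conservative list and the summit in place of the midpoint moved none of these values beyond their intervals, or counts by over 1.5 times. Neither did leaving out genes that enclose 3 or more other protein-coding genes, a setting added after the data were seen. The cause of the changes was not tested.

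No paired analysis was possible because the 2 libraries form 1 group and nothing was compared between groups.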
